A study of Mus musculus with 9 samples.

Results

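Cd5, Cd6 and 4 genes of the Ly6 family (Ly6a, Ly6c1, Ly6c2 and Ly6e) encode surface proteins of T cells and are grouped here because CD5 and Ly6C are used to grade how strongly a T cell responds to self-peptides. Their rows were taken by gene symbol and not by a limit on measured values, but the symbols were chosen with earlier results of these data known. They make up 6 of the 41978 genes in the deposited table. All 6 were among the 30693 genes tested. Their RNA was measured by bulk RNA-seq (SMART-seq v4 and NexteraXT) in semi-mature CD4 single-positive (SP4) thymocytes, sorted as live CD25- CD69+ CD24+ CD4+ CD8- cells. Every sample came from Nur77-eGFP BAC transgenic mice on a C57BL/6 background, in which a bacterial artificial chromosome with the Nr4a1 locus drives GFP, so that all 3 groups carry the transgene and differ only in the GFP gate. The GFPlo, GFPmed and GFPhi samples hold the lowest, a middle and the highest 10% or so of the GFP distribution, with 3 biological replicates and 10000 sorted cells per sample. No treatment was given. The methods of the study give an age of 3 to 10 weeks and both sexes for its mice, without a value for each sample, and its text and methods differ on whether the CD24 gate was low or high.

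CD5 and CD6 are neighbouring receptors with extracellular scavenger receptor cysteine-rich domains. Both are phosphorylated on their tails when the T cell receptor (TCR) is engaged and recruit signalling and adaptor proteins, and CD5 dampens TCR signalling in thymocytes. Surface CD5 is set during selection in the thymus and is widely used to read the strength of the self-peptide signal that a T cell received. The Ly6 proteins are small molecules held in the membrane by a glycosylphosphatidylinositol (GPI) anchor. Ly6A is Sca-1, a marker of stem cells and of activated lymphocytes, Ly6C marks subsets of T cells and monocytes, and Ly6E, also called TSA-1 or Sca-2, is abundant on thymocytes. In naive CD4 T cells, low Ly6C and high CD5 are taken as marks of strong self-recognition, and several Ly6 genes are known to respond to interferon.

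Cd5 (ENSMUSG00000024669.8) and Cd6 (ENSMUSG00000024670.17) lie next to each other on the minus strand of chromosome 19, at chr19:10717116-10739002 and chr19:10789341-10830058 of GRCm38, 50.3 kb apart. The 4 Ly6 genes lie within 156.9 kb of chromosome 15. Ly6e is on the plus strand at chr15:74955051-74959905, and Ly6a (chr15:74994877-74998031), Ly6c1 (chr15:75044018-75048830) and Ly6c2 (chr15:75108158-75111970) follow on the minus strand. No other annotated gene overlapped any of the 6.

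The start of the coding sequence of Ly6c1 and Ly6c2 is shown because both encode Ly6C and a read of one can be mistaken for a read of the other. The first 150 coding bases of an annotated Ly6c1 transcript span 75047390 to 75048511 and those of a Ly6c2 transcript span 75110548 to 75111667 on chromosome 15 (GRCm38, minus strand, introns left out), and capitals mark the 6 bases that differ.
Ly6c1: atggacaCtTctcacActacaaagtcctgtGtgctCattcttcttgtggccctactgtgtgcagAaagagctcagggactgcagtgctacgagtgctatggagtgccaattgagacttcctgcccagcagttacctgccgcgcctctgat
Ly6c2: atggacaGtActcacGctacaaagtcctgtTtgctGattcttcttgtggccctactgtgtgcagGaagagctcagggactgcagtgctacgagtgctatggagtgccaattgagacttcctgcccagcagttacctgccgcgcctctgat

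Over the whole coding sequence of 396 bases, Ly6c1 and Ly6c2 were 97.7% identical and differed at 9 bases. Ly6a was 82.0% identical to Ly6c1 and 52.6% identical to Ly6e in its coding sequence. Of the windows of 100 bases, the length of a read, in the annotated transcripts of a gene, 10.1% of those of Ly6c1 and 5.81% of those of Ly6c2 were also found in another gene, in each case mainly the other of the pair. The share was 1.45% for Ly6a, and no window of Cd5, Cd6 or Ly6e was shared. Solved reads were whole numbers, so shared reads were not divided between genes. How many reads of Ly6c1 and Ly6c2 were dropped or misassigned was not tested. Reads were sequenced in pairs, so a single window can overstate the share that is ambiguous. Windows of all annotated transcripts counted alike, so the share can also be understated where the transcript expressed is shorter. The pair shared 159 windows, of 1756 in Ly6c1 and 2737 in Ly6c2.

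Total reads per sample, solved from the deposited values, ran from 7465552 to 14943774 with a median of 9426281. The depth behind the 6 genes was very unequal. Cd6 had 4492 to 21720 reads per sample, Cd5 had 2837 to 14671 and Ly6e had 2763 to 7511. Ly6a had 47 to 179 reads, Ly6c1 had 20 to 88 and Ly6c2 had 6 to 32, so small changes of these 3 were not detectable at this depth. The number of genes at a TPM (reads scaled by gene length and library size) of at least 1 ran from 23486 in GFPhi replicate 2 to 29902 in GFPlo replicate 1, and within the GFPhi group Ly6a and Ly6c2 were lowest in replicate 2 and all 3 low Ly6 genes were highest in replicate 1. The part of this in their values was not tested.

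Cd5 RNA was higher in each higher GFP gate. Its TPM was 184, 182 and 212 in GFPlo, 319, 316 and 319 in GFPmed and 532, 677 and 569 in GFPhi. The 3 groups did not overlap. Of all genes tested, 8.26% lay higher in GFPhi than in GFPlo without overlap, 5.55% higher in GFPmed than in GFPlo and 7.11% higher in GFPhi than in GFPmed. The mean of GFPhi, 592 ± 75.3 (SD, n = 3), was 3.07 times that of GFPlo, 193 ± 16.7 (SD, n = 3).

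Cd6 RNA followed the same order with less spread between replicates at the low end. Its TPM was 155, 157 and 154 in GFPlo, 266, 255 and 265 in GFPmed and 437, 534 and 458 in GFPhi. Again no sample of one group reached the range of another. The GFPhi mean of 476 ± 51.2 (SD, n = 3) was 3.06 times the GFPlo mean of 156 ± 1.38 (SD, n = 3).

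Between GFPhi and GFPlo, Cd5 was higher by 1.61 on the log2(TPM + 1) scale (SE 0.10, 95% interval 1.38 to 1.84, adjusted p = 0.000188 in limma with Benjamini-Hochberg adjustment over all genes tested). Cd6 was higher by 1.60 (SE 0.08, 95% interval 1.43 to 1.78, adjusted p = 6.49e-05 in limma). A gene was called at a log2 fold change of at least 1 either way and an adjusted p of at most 0.05. By that rule 2 of the 6 genes, Cd5 and Cd6, were called higher in GFPhi than in GFPlo, and none was called lower, where 1.26% of all genes tested were called higher and 0.404% lower. Among the 30693 genes, Cd5 ranked 491 and Cd6 ranked 498 by the size of the rise, but 43 and 25 by adjusted p. Both ranked higher by the test than by the size of the change. The median change of all genes tested was -0.09 in this comparison.

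**Figure D1:**
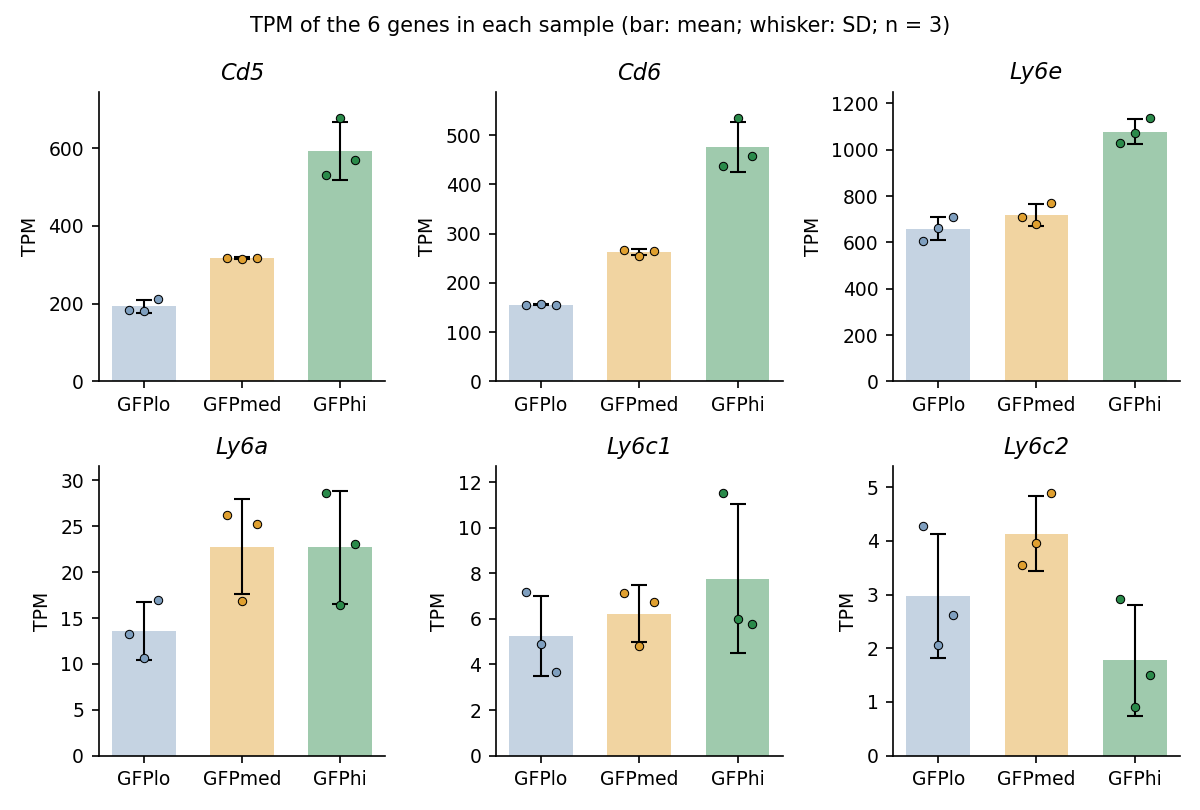
TPM of the 6 genes in each sample, with bars at the mean and whiskers at 1 SD (n = 3 per group) and a scale of its own for each gene. Cd5 and Cd6 step up from GFPlo to GFPmed to GFPhi with no overlap, Ly6e is higher only in GFPhi, where it lies between 1028 and 1136, and the 3 low Ly6 genes overlap between GFPlo and GFPhi.

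The levels of Cd5 and Cd6 in GFPmed lay near the middle of the range. On the log2 scale the difference of Cd5 between GFPmed and GFPlo was 0.72 (95% interval 0.49 to 0.95, adjusted p = 0.0933 in limma) and that between GFPhi and GFPmed was 0.89 (95% interval 0.66 to 1.12, adjusted p = 0.00555). For Cd6 it was 0.75 in the first step (95% interval 0.57 to 0.92, adjusted p = 0.0299 in limma) and 0.85 in the second (95% interval 0.68 to 1.03, adjusted p = 0.00244). No step of either gene reached a log2 fold change of 1, so that 0 of the 6 genes were called higher between neighbouring groups by limma, where 0.0554% of all genes were in GFPmed against GFPlo and 0.541% in GFPhi against GFPmed. At an unadjusted p under 0.05, 3 were higher in each step and 1, Ly6c2, was lower in the second. The share of all genes at an unadjusted p under 0.05 was not counted, here or beside the lists below. Limma-voom on the solved reads also called 0. By adjusted p alone, 1 of the 6 (Cd6) was higher in GFPmed than in GFPlo, where 0.0717% of all genes were, and 3 of the 6 (Cd5, Cd6 and Ly6e) were higher in GFPhi than in GFPmed, where 0.899% were. The GFPmed samples enter both steps, which are therefore not independent. The first step missed an adjusted p of 0.05 in 16 of 19 alternatives for Cd5 and in 11 for Cd6. The second step of Ly6e did so in 5, and the second steps of Cd5 and Cd6 did so in 1, median-of-ratios scaling (adjusted p = 0.175 and 0.127 in limma).

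Put as a share of the whole change on the log2 scale, GFPmed had reached 0.448 of the way for Cd5 and 0.466 for Cd6. The difference between the second and the first step was 0.17 for Cd5 (95% interval -0.22 to 0.56) and 0.11 for Cd6 (95% interval -0.20 to 0.41), and a departure from equal steps was not detectable for either (adjusted p = 1.00 for each in limma). The trend over the 3 ordered groups gave the smallest two-sided p that an exact permutation test of the 9 samples allows, 0.00119, for both Cd5 and Cd6. Of all genes tested, 1.67% rose with that same p and 7.14% with an exact p of at most 0.05, as did Ly6e (exact permutation p = 0.00238). Leaving out any 1 sample kept the exact permutation p of both between 0.00179 and 0.00357.

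The proportion of Cd5 to Cd6 reads was similar in the 3 groups. The ratio of Cd5 to Cd6 reads was 0.632, 0.619 and 0.732 in the GFPlo samples, 0.639, 0.661 and 0.641 in GFPmed and 0.649, 0.675 and 0.663 in GFPhi. The group means were 0.661 ± 0.062, 0.647 ± 0.012 and 0.662 ± 0.013 (SD, n = 3 each), and the widest spread was that of GFPlo, through replicate 3. No trend in the ratio was found (exact permutation p = 0.930, two-sided, adjusted p = 0.956 over 3 ratios), although without GFPlo replicate 3 the ratio rose with GFP (r = 0.83, exact permutation p = 0.0143). Log2 levels of the pair correlated across the 9 samples with r = 0.995, a description that carries the difference between the groups.

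Ly6e behaved otherwise from Cd5 and Cd6. Its TPM was 608, 662 and 709 in GFPlo, 710, 678 and 771 in GFPmed and 1028, 1072 and 1136 in GFPhi. The lower groups overlapped and every GFPhi sample lay above both. The GFPhi mean of 1079 ± 54.3 (SD, n = 3) was 1.63 times the GFPlo mean of 660 ± 50.6 (SD, n = 3).

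On the log2 scale Ly6e was higher by 0.71 in GFPhi than in GFPlo (SE 0.08, 95% interval 0.53 to 0.89, adjusted p = 0.0025 in limma), which passed the adjusted p but not the fold limit. Counting it, 3 of the 6 genes were higher by adjusted p alone, where 2.38% of all genes tested were. The adjusted p of Ly6e was 0.117 under median-of-ratios scaling, the one alternative of 19 in which it missed 0.05. GFPmed was 0.13 above GFPlo (95% interval -0.05 to 0.30, adjusted p = 1.00 in limma), and GFPhi was 0.58 above GFPmed (95% interval 0.41 to 0.76, adjusted p = 0.0116). GFPmed had thus reached 0.177 of the whole change. The second step exceeded the first by 0.46 (95% interval 0.15 to 0.77, unadjusted p = 0.00898 in limma), which did not pass adjustment over all genes (adjusted p = 0.789).

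Ly6a RNA was low, at 13.2, 10.6 and 17.0 TPM in GFPlo, 26.2, 16.8 and 25.3 in GFPmed and 28.7, 16.4 and 23.0 in GFPhi. The lowest GFPmed and GFPhi samples, both replicate 2, fell inside the GFPlo range, and replicate 2 was also the lowest of GFPlo. At each replicate number GFPhi lay above GFPlo, but it is not known if equal numbers mark shared mice. The share of all genes with such an order was not counted, here or for the 2 genes below. The log2 difference between GFPhi and GFPlo was 0.69 (95% interval 0.08 to 1.30, adjusted p = 0.283 in limma), near in size to that of Ly6e but with an SE of 0.26 against 0.08. The difference between GFPmed and GFPlo was 0.70 (95% interval 0.09 to 1.31, adjusted p = 0.976). That between GFPhi and GFPmed was -0.01 (95% interval -0.62 to 0.60, adjusted p = 0.996), and it turned to 0.04 under median-of-ratios scaling and to 0.03 under quantile normalization. The trend did not pass the exact permutation test (p = 0.0726), but did without GFPhi replicate 2 (p = 0.025).

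Ly6c1 and Ly6c2, which together encode Ly6C, were near the floor of the measurement. Ly6c1 TPM was 7.17, 4.91 and 3.69 in GFPlo, 7.13, 4.80 and 6.74 in GFPmed and 11.5, 6.0 and 5.76 in GFPhi. Its groups overlapped, and the GFPhi mean rested largely on replicate 1, although GFPhi lay above GFPlo at each replicate number. The log2 difference between GFPhi and GFPlo was 0.46 (95% interval -0.28 to 1.21, adjusted p = 0.644 in limma), and 0.18 without GFPhi replicate 1. The trend gave an exact permutation p of 0.179.

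Ly6c2 was the one gene of the 6 whose estimate was lower in GFPhi. Its TPM was 4.27, 2.06 and 2.61 in GFPlo, 3.56, 3.96 and 4.90 in GFPmed and 2.92, 0.912 and 1.5 in GFPhi. GFPhi lay below GFPmed without overlap, as did 9.41% of all genes tested, but overlapped GFPlo. At each replicate number GFPhi lay below GFPlo. The log2 differences were -0.55 between GFPhi and GFPlo (95% interval -1.32 to 0.23, adjusted p = 0.576 in limma) and -0.94 between GFPhi and GFPmed (95% interval -1.71 to -0.17, adjusted p = 0.321). Neither was called. The first was -0.31 without GFPhi replicate 2, -0.32 without GFPlo replicate 1 and -0.83 without GFPhi replicate 1. The exact permutation p of the trend was 0.232 with r = -0.44.

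**Figure D2:**
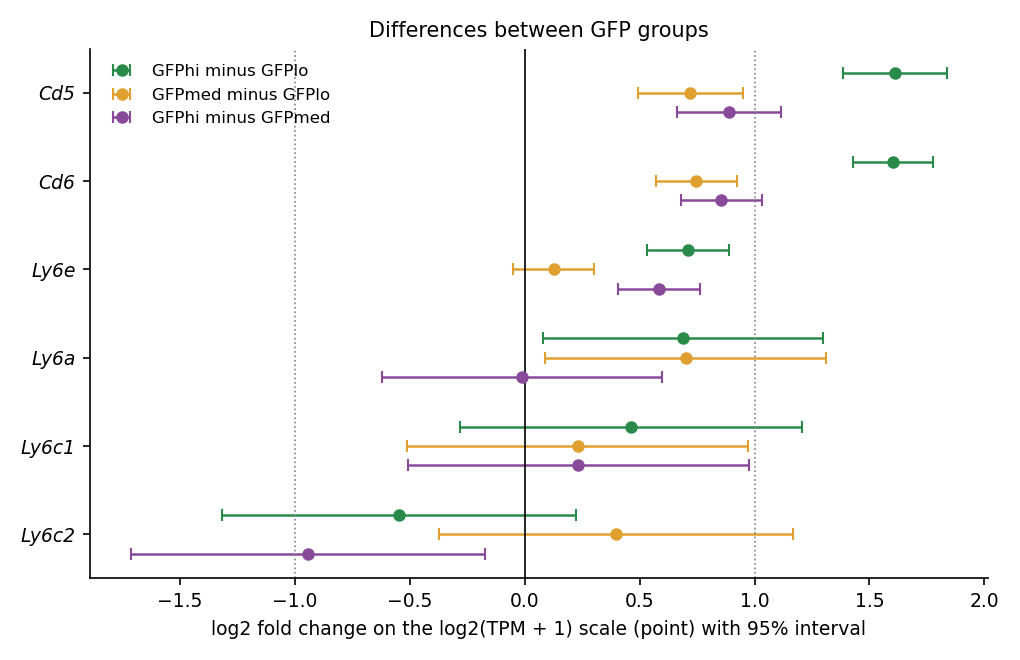
Log2 fold change of each gene between the GFP groups on the log2(TPM + 1) scale, as a point with its 95% interval from limma. Dotted lines mark a log2 fold change of 1 either way. The GFPhi against GFPlo intervals of Cd5 and Cd6 lie wholly beyond 1, that of Ly6e lies between 0.53 and 0.89, and those of Ly6c1 and Ly6c2 include 0.

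The ratio of Ly6c1 to Ly6c2 reads was examined after the values of both had been seen. It was 1.70, 2.42 and 1.43 in GFPlo, 2.03, 1.23 and 1.39 in GFPmed and 4.0, 6.67 and 3.89 in GFPhi. All 3 GFPhi samples lay above the other 6. The GFPhi mean was 4.85 ± 1.57 (SD, n = 3), against 1.85 ± 0.51 in GFPlo and 1.55 ± 0.42 in GFPmed. The exact permutation p of the trend was 0.0405, but 0.121 when adjusted over the 3 ratios examined, and it was between 0.0625 and 0.1 when GFPlo replicate 1 or 3, GFPmed replicate 1 or any GFPhi sample was left out. Each GFPhi ratio has 6 to 22 Ly6c2 reads beneath it. The ratio of Ly6e to Ly6a reads, 64.0 ± 13.9 in GFPlo, 41.7 ± 8.74 in GFPmed and 64.1 ± 18.8 in GFPhi (SD, n = 3 each), had no detectable trend (exact permutation p = 0.956).

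**Figure D3:**
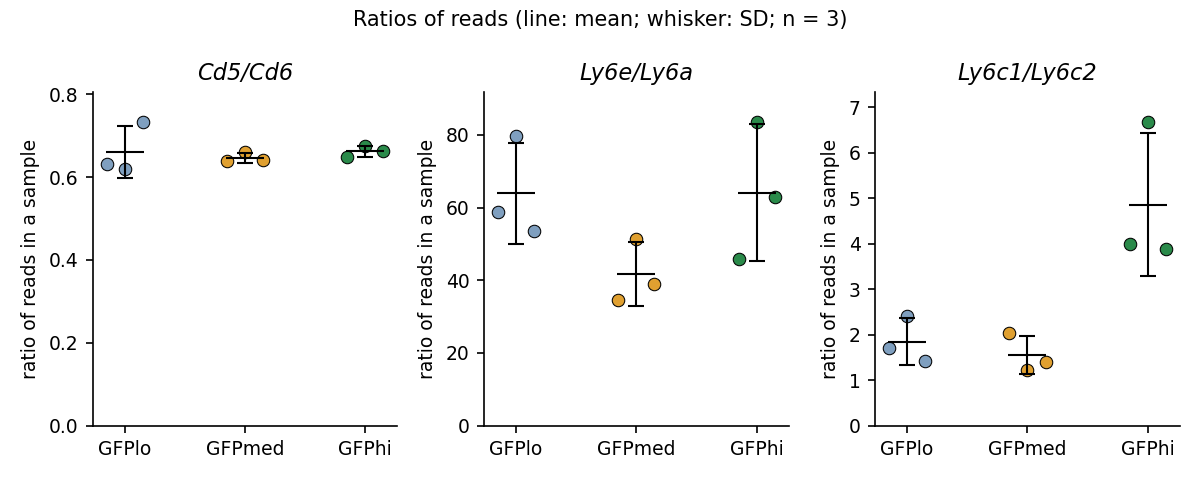
Ratio of the reads of 2 genes in each sample by GFP group, with the mean as a line and 1 SD as a whisker (n = 3). The ratio of Cd5 to Cd6 stays between 0.619 and 0.732, and the GFPhi samples of the Ly6c1 to Ly6c2 ratio, 3.89 to 6.67, lie above the rest.

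Nr4a1, the gene whose locus drives the reporter, was itself higher in GFPhi than in GFPlo by 1.95 (adjusted p = 0.000188 in limma). It spanned 187 to 251 TPM in GFPlo, 351 to 406 in GFPmed and 767 to 917 in GFPhi. Its first step, 0.79, did not pass adjustment (adjusted p = 0.136 in limma). Cd5 and Cd6 rose with Nr4a1 over the 3 groups without overlap, and Ly6e was clearly higher only in GFPhi. Ly6a, Ly6c1 and Ly6c2 passed no adjusted test between groups, with intervals too wide to say whether they follow Nr4a1. In bulk samples, fewer cells with a transcript and less of it per cell cannot be told apart.

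Levels of different genes are compared as RPKM over exons, that is, solved reads divided by the exonic length and the library size, because for 97.3% of 20121 protein-coding genes the length behind the TPM was a mean genomic span that counts introns. The exonic length joins the exons of all annotated transcripts. It was 4928 bases for Cd5, 7968 for Cd6, 3784 for Ly6e, 1677 for Ly6c1 and 2740 for Ly6c2. The order of genes below depends on these lengths, which can exceed that of the transcript expressed. On the RPKM scale Ly6e led in GFPlo at 105 ± 7.61, ahead of Cd5 at 79.7 ± 6.61 and Cd6 at 74.6 ± 0.845, of which the last pair did not differ beyond their spread. In GFPmed the order became Cd5 at 131 ± 2.90, Cd6 at 125 ± 3.93 and Ly6e at 114 ± 9.34. In GFPhi Cd5 was at 247 ± 21.5 and Cd6 at 230 ± 15.7, within each other's spread, and Ly6e at 173 ± 9.47 lay below both (SD, n = 3 throughout). Ly6a, at 5.30, 8.82 and 9.01 in the 3 groups, came an order of magnitude lower. Ly6c1 stood at 1.96, 2.31 and 2.96 and Ly6c2 at 0.673, 0.931 and 0.411. The summed TPM of gene lists given below weight each gene by the length behind its TPM and serve only to compare groups.

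The genes whose log2 levels were most like a member over the 9 samples were taken as the 3 of highest Pearson r among 9952 genes with a mean TPM of at least 5, as a description without a test. For Cd5 these were Rasgrp2, an exchange factor for Rap GTPases (r = 0.999), Btg1, an antiproliferative factor of quiescent lymphocytes (r = 0.996), and Lfng, a glycosyltransferase that modifies Notch (r = 0.995). For Cd6 they were Btg1 and Rasgrp2 again, at r = 0.995 and r = 0.994, and Shisa5 at r = 0.994. Lfng rose from 99.8 TPM in GFPlo to 159 in GFPmed and 335 in GFPhi. Rasgrp2 rose from 99.3 to 140 and 220, and Btg1 from 635 to 879 and 1447. These are group means of genes that, like Cd5 and Cd6, stood at an intermediate level in GFPmed.

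Those most like Ly6e were Gsto1, a glutathione transferase (r = 0.991), Slc26a10 (r = 0.989) and Zdhhc20, a palmitoyltransferase (r = 0.989). Gsto1 had 3.90 TPM in GFPlo, 6.44 in GFPmed and 43.8 in GFPhi. Slc26a10 had 188, 194 and 303 TPM and Zdhhc20 had 27.9, 29.5 and 35.2, so that in each the larger step was the second. For Ly6a the nearest was Dtx3l, a ubiquitin ligase induced by interferon (r = 0.954), followed by Dr1 (r = 0.908) and the TCR joining segment Traj7 (r = 0.890). The genes nearest to Ly6c1 were Rpl19-ps6, Vmn2r-ps72 and Tac1, at r = 0.905 to 0.921, and those nearest to Ly6c2 were AA413626, Olfr74 and Cipc, at r = 0.928 to 0.933. Pseudogenes and an olfactory receptor lead these last lists, which belong to genes with few reads.

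Most of the other genes within 250 kb of each locus were not called. Around Cd5 and Cd6, 2 of the 23 other genes tested were called higher in GFPhi than in GFPlo and 0 lower in limma (1 lower at an unadjusted p under 0.05, and 0 lower in limma-voom), with a median log2 fold change of 0.00. The shares of all genes tested were 1.26% called higher and 0.404% lower. The noncoding transcript A430093F15Rik lies between Cd5 and Cd6 on the opposite strand, and its start is 1.95 kb from that of Cd5. It rose from 4.08 ± 0.330 TPM in GFPlo to 6.44 ± 0.872 in GFPmed and 17.4 ± 1.55 in GFPhi (SD, n = 3), a log2 fold change of 1.86 between the end groups (SE 0.16, adjusted p = 0.000791 in limma). The library does not mark strand, so the strand of the reads counted for A430093F15Rik is not known. Whether they include reads from beyond the annotated end of Cd6 was not tested. The other, AW112010, a noncoding transcript induced in activated immune cells, rose from 4.82 ± 0.549 to 23.4 ± 4.52 TPM (SD, n = 3; log2 fold change 2.05, SE 0.21, adjusted p = 0.00188 in limma). Both were singled out after their values were seen.

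Around the Ly6 genes, 0 of the 15 other genes tested were called in either direction by limma (1 higher and 2 lower at an unadjusted p under 0.05, and 1 higher in limma-voom with median-of-ratios factors) and the median was -0.12. Ly6d, a family member of lymphoid progenitors, came closest, at 5.76 TPM in GFPlo, 9.91 in GFPmed and 14.9 in GFPhi (log2 fold change 1.28, adjusted p = 0.0568 in limma).

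**Figure D4:**
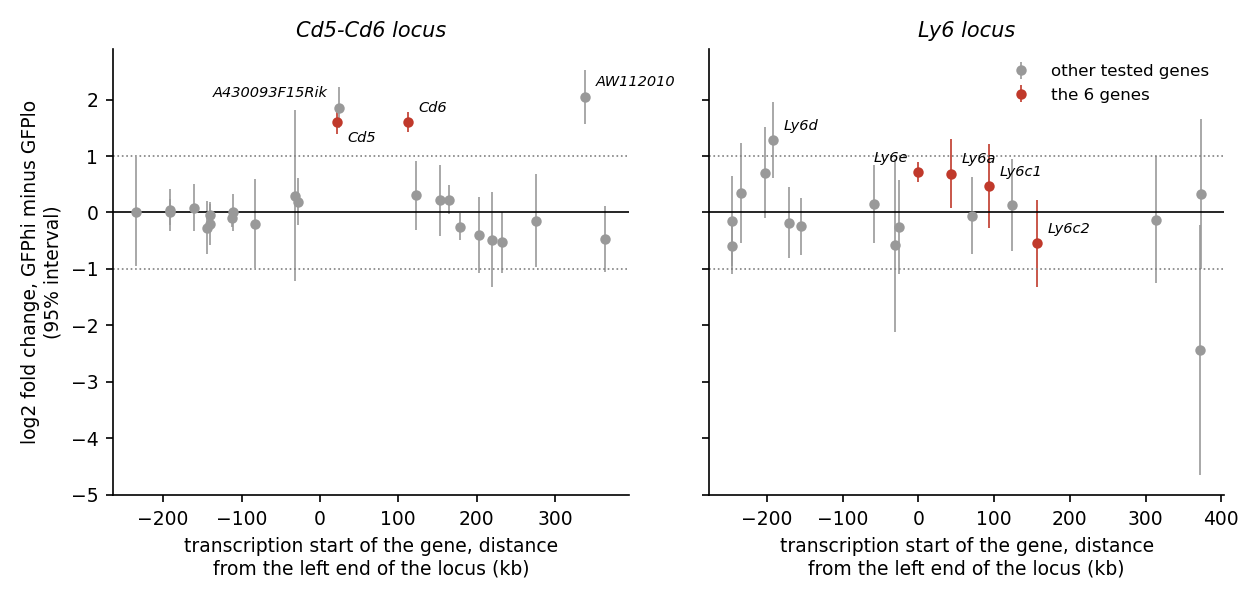
Log2 fold change between GFPhi and GFPlo, with the 95% interval from limma, of every tested gene within 250 kb of the Cd5-Cd6 locus and of the Ly6 locus, against the distance of its transcription start from the left end of the locus in kb. Red points are the 6 genes. At the Cd5-Cd6 locus only A430093F15Rik and AW112010 among the other genes lie above the dotted line at 1 with an adjusted p under 0.05.

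The sequence before the transcription start of Cd5 is shown because Cd5 is the member with the largest rise and an annotated RefSeq promoter. Promoters from the RefSeq table of GRCm38.p6 matched 3 of the 6 genes, Cd5, Ly6c1 and Ly6c2. The 250 bases before the RefSeq start of Cd5 are chr19:10738975-10739224 (minus strand). The gene as given above begins at 10739002, so the last bases of this window lie inside it. Distances below are counted from the RefSeq start. Capitals mark the matches to the motifs searched on both strands. These were the NR4A element AAAGGTCA, the EGR motif GCGNGGGCG, the ETS core AGGAAG, the E-box CAGNTG, the interferon response element core GAAANNGAA and the GAS motif TTCNNNGAA.
Cd5: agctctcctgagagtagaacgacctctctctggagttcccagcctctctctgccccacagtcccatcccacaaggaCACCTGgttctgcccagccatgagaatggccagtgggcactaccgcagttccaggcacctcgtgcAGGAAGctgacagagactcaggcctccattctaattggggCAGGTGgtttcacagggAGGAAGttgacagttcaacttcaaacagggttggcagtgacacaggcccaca

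Cd5 had 2 E-boxes, at 174 and 69 bases before the start, and 2 ETS cores, at 109 and 52 bases. An E-box was present in 44.5% and an ETS core in 29.2% of 27025 promoters of this length, so both are common. Ly6c1 had 3 E-boxes and no ETS core, and Ly6c2 had 2 E-boxes and 1 ETS core, in windows that were 57.8% identical to each other. None of the 3 windows held the letters of the NR4A, EGR, interferon response or GAS motifs, which were present in 1.31%, 4.65%, 7.16% and 7.18% of promoters.

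Among genes of related function, 0 of the ligands proposed for CD5 and CD6 were called by limma or limma-voom, and 1 of the 3 was tested. Cd72, a B cell protein proposed to bind CD5, had 36.2 to 43.5 TPM in GFPlo and 48.4 to 69.9 in GFPhi (log2 fold change 0.53, 95% interval 0.04 to 1.02, unadjusted p = 0.0387 and adjusted p = 0.315 in limma). The GFPhi samples lay above the GFPlo samples without overlap, as did 8.26% of all genes tested. Cdcp1, a further ligand of CD6, had 0 to 0.183 TPM in GFPlo and 0.265 to 0.536 in GFPhi, and Alcam, the CD166 ligand of CD6, had 0.394 to 0.707 and 0.368 to 0.692. Both stayed under the TPM filter and were not tested. Alcam had 75 to 108 reads per sample in GFPlo and 72 to 170 in GFPhi, so a TPM under the filter does not mean few reads.

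Of 22 genes for proteins that bind or act beside the tails of CD5 and CD6, 1 was called higher in GFPhi than in GFPlo and 0 lower, where 1.26% and 0.404% of all genes were. The median was -0.06 against -0.09 over all genes. The gene called was Cblb, a ubiquitin ligase that restrains TCR signalling, with 3.95 to 4.73 TPM in GFPlo and 9.82 to 11.9 in GFPhi (log2 fold change 1.16, adjusted p = 0.00821 in limma). Ubash3a, a suppressor of TCR signalling, passed the adjusted p with a smaller difference of 0.42 (adjusted p = 0.0047).

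Genes related to the 6 by structure or by their membrane anchor were counted in the same way. The shares of all genes tested were again 1.26% called higher and 0.404% lower, with a median of -0.09. Of 6 other tested genes with scavenger receptor cysteine-rich domains, 0 were called in either direction by limma, 0 had an unadjusted p under 0.05 and limma-voom called 0, with a median of -0.26. Of 17 other tested Ly6 and uPAR family genes 0 were called by limma (1 higher and 1 lower at an unadjusted p under 0.05), with a median of -0.16. Limma-voom called 0 with library totals and 1 higher with median-of-ratios factors. Of 11 other GPI-anchored T cell surface genes, 2 were called higher and 0 lower, with a median of 0.18, and at an unadjusted p under 0.05 they were 5 and 1. The genes called were Nt5e, which encodes the ectoenzyme CD73 (log2 fold change 1.85, adjusted p = 0.00647 in limma), and Art2b, an ADP-ribosyltransferase (log2 fold change 2.06, adjusted p = 0.0132), whose call was lost without GFPlo replicate 2 or GFPhi replicate 3. Izumo1r, folate receptor 4, passed the adjusted p with a difference of 0.58 (adjusted p = 0.0131).

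Interferon-stimulated genes were listed because Ly6a and Ly6e belong to the same kind. Of 18 tested, 1 was called higher and 0 lower, where 1.26% and 0.404% of all genes were. By adjusted p alone 6 were higher, where 2.38% of all genes were. The median was 0.67 against -0.09 over all genes, beside 0.71 for Ly6e and 0.69 for Ly6a. Between GFPmed and GFPlo the median of the list was 0.23, beside 0.13 for Ly6e and 0.70 for Ly6a. Between GFPhi and GFPmed it was 0.45, beside 0.58 and -0.01. The gene called was Ifi27l2a, with 154 to 286 TPM in GFPlo and 903 to 1151 in GFPhi (log2 fold change 2.16, adjusted p = 0.0048 in limma). Zbp1, a sensor of nucleic acids, passed the adjusted p at 0.68. The summed level of the list was 1231 to 1849 TPM in GFPlo, 1473 to 2197 in GFPmed and 2771 to 3428 in GFPhi, and its part in the values of Ly6a and Ly6e was not tested.

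Markers of the sort and of other cells moved with GFP as well, and their part in the values of Cd5, Cd6 and Ly6e was not tested. Beside the counts of markers below, 1.26% of all genes tested were called higher in GFPhi than in GFPlo and 0.404% lower. Cd4, Cd3e, Trac and Cd24a were present in all samples and were not called, at log2 differences of -0.30, -0.18, 0.23 and -0.12. Il2ra, which encodes the CD25 used to exclude cells, was higher by 2.68 (adjusted p = 0.000491 in limma) at 0.606 to 0.741 TPM in GFPlo and 8.11 to 11.2 in GFPhi. Cd8a was called lower (log2 fold change -1.12, adjusted p = 0.0158), a call that was lost under median-of-ratios scaling, under quantile normalization, in a fit of only the 2 groups and without GFPlo replicate 2, GFPlo replicate 3 or GFPhi replicate 3. Cd8b1 and Cd69 passed the adjusted p at -0.79 each.

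All 5 regulatory T cell markers were called higher in GFPhi, with a summed level of 172 to 194 TPM in GFPlo, 340 to 420 in GFPmed and 732 to 846 in GFPhi. Tnfrsf18 (GITR) made up most of that sum at 162 to 184 TPM in GFPlo and 672 to 795 in GFPhi, but TPM here is not comparable between genes. In GFPhi it had 2425 to 3144 reads per sample, against 2934 to 3725 for Ikzf2. Foxp3, the defining factor, had 6.57 to 7.04 TPM in GFPlo and 14.0 to 18.4 in GFPhi. Ikzf2 and Ctla4 were higher by 2.7 and 2.72. Of 6 markers of mature SP4 cells, 3 were called higher and 1 lower. Klf2, a factor of mature and quiescent thymocytes, and S1pr1, the egress receptor, were higher by 2.60 and 4.70, Itgb7 by 1.22, and Il7r was lower by 1.81 on the log2 scale (a difference of -1.81). The summed level was 803 to 907 TPM in GFPlo and 1535 to 1653 in GFPhi.

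Of 6 markers of double-positive thymocytes, 0 were called higher and 2 lower, Cd8a, with the exceptions above, and Dntt, the terminal transferase of immature cells (log2 fold change -1.43), with a summed level of 58.8 to 61.8 TPM in GFPlo and 27.9 to 36.0 in GFPhi. Of the 4 B cell, 7 myeloid and dendritic and 3 NK, NKT and gamma-delta T cell markers tested, 0 were called in either direction by limma, 0 had an unadjusted p under 0.05 and limma-voom called 0, and the summed levels of those lists reached at most 31.4, 34.7 and 29.0 TPM in any sample. Of 4 epithelial, endothelial and stromal markers, 1 was called higher, Epcam, at 2.15 to 3.26 TPM in GFPlo and 8.26 to 9.08 in GFPhi (log2 fold change 1.38, adjusted p = 0.012 in limma), a call that was lost without GFPhi replicate 3.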

How the data were processed

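Per the labels and the study's methods, the authors used STAR 2.7.11b with GRCm38 and GENCODE genes, dropped identical duplicate reads, counted per gene, and deposited TPM for each sample. The library kit does not mark strand. The authors also deposited the signal of each group as a mean of normalized counts (DESeq2 1.34.0), which was used only to solve the reads, and fold changes, p-values and calls between groups, which were not used. Solved reads were whole within 0.01 for 100% of values in 41578 of 41978 genes.

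A gene entered the test if 3 or more samples had a TPM of 1 or more. The test was limma (version 3.58.1, R 4.3.3) in one model of all 9 samples, with eBayes and a trend, on log2 of TPM plus 1, a scale that understates changes of low genes. The samples were mapped by their labels, and 0 sample columns were left unused. Trends and ratios were tested by two-sided exact permutation over 1680 arrangements of the samples. Promoters came from RefSeq, and transcripts from the GENCODE vM21 annotation of the same build. The fit was tested on simulated data.

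Named genes were the 6 members, the 3 most alike of each (without Gm or Rik names), the genes of each list that were called, up to 5 per list and direction, and the ligand and sort lists in full. Others (Ubash3a, Izumo1r, Zbp1, Ly6d and the genes beside Cd5 and Cd6) were named after their values were seen. The members and lists were chosen with earlier results of these data known. Replicates are labelled as biological, and the sources used here do not say if equal numbers mark shared mice. Amplified reads carry no molecular identifiers, so p-values rest on the spread between samples. Alternatives were the pseudocount, filter, scaling, samples in the fit, variance prior, replicate block, limma-voom on solved reads, no limit on the fold change and omission of each sample. Counts and ranges over 19 alternatives leave out the setting with no limit on the fold change.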

Additional observations from a re-analysis of the deposited data

How the results depend on the processing

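Over 19 alternatives the rise of Cd5 between GFPlo and GFPhi stayed between 1.51 and 1.70 (adjusted p at most 0.00878 in limma) and that of Cd6 between 1.52 and 1.69 (at most 0.00488), so both were called in each. Ly6e ranged from 0.65 to 0.80 and was called in none of the 19. It was called only in a further setting, without a limit on the fold change, at 0.71. That setting gave 1 member between GFPmed and GFPlo and 3 between GFPhi and GFPmed in place of 0. The difference of Ly6a between GFPhi and GFPmed turned positive under median-of-ratios scaling (0.0447), quantile normalization (0.0307) and voom with median-of-ratios factors (0.0486), and ranged from -0.21 to 0.19 when a sample was left out, and that of Ly6c1 from -0.0548 to 0.39. The cause was not tested. Trends passed 0.05 by exact permutation for Ly6a (0.0369) and Ly6c1 (0.031) under median-of-ratios scaling and for Ly6a (0.0464) and Ly6c1 (0.0143) under quantile normalization, with ranges when a sample was left out of 0.025 to 0.175 and 0.0714 to 0.479. For the ratio of Cd5 to Cd6 that range was 0.0143 to 0.988, and for Ly6c1 to Ly6c2 it was 0.0232 to 0.1. Ly6c2 had no value under a TPM of at least 5.

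Same-numbered samples were not treated as paired, as the sources do not say if they share mice. Their deviations correlated weakly (mean r = 0.061 over 9 pairs, from 0.0122 to 0.225). The mean was -0.03 over 18 other pairs, from -0.186 to 0.148. A correlation over all genes tested cannot decide if samples are paired. With the replicate block the trend of the Ly6c1 to Ly6c2 ratio had an exact p of 0.0648 and 3 interferon-stimulated genes were called in place of 1, and no call of a member changed. The adjusted p of Ly6a between GFPhi and GFPlo was 0.0795 with the block in limma, in place of 0.283. Permuted only within replicate numbers, the trend had an exact p of 0.0556 for Ly6a, 0.0741 for Ly6c1 and 0.287 for Ly6c2. The median change of all genes ran from -0.16 to 0.00 when a sample was left out. Counts of lists moved as follows: other Ly6 genes 1 higher under a TPM of at least 5 and under quantile normalization (Ly6d), GPI-anchored genes 1 under a TPM of at least 5, sort markers 0 lower and double-positive markers 1 lower under median-of-ratios scaling, quantile normalization and a fit of only the 2 groups. With a sample left out, the lowest and highest were 1 and 2 for GPI-anchored genes (1 without GFPlo replicate 2 or GFPhi replicate 3), 1 and 2 for interferon-stimulated genes (2 without GFPlo replicate 1), 0 and 1 for sort markers lower and 1 and 2 for double-positive markers lower (the lower count without GFPlo replicate 2 or 3 or GFPhi replicate 3) and 0 and 1 for epithelial markers (0 without GFPhi replicate 3). Limma-voom with library totals called more genes of several lists, 2 higher among partners of CD5 and CD6, 3 among GPI-anchored genes, 3 among interferon-stimulated genes (6 with median-of-ratios factors) and 3 lower among double-positive markers. The share of all genes that limma-voom called was not counted, so whether these counts exceed it is not known. The shares given above are those of limma on log2(TPM + 1). Voom counts of lists, alternatives for the ratios and omissions for the lists were chosen after seeing the data.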
